A study of Mus musculus with 3 samples.

Results

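A set of 7 genes of extracellular purine signalling was followed through myeloid cells of the mouse hippocampus: the P2Y receptors P2ry12, P2ry13 and P2ry6, the P2X channels P2rx4 and P2rx7, the adenosine receptor Adora3 and the ectonucleotidase Entpd1. They were found by symbol, and each of the 7 had a single row among the 31053 genes of the count tables. The cells came from mice of the genotype Cx3cr1CreERT2/+, Rosa26tdTomato/+ and NestinTK-eGFP/+, in which a tamoxifen-inducible Cre at the Cx3cr1 locus switches on tdTomato in microglia and other cells that use this promoter. All animals received tamoxifen at 100 mg/kg on 4 days. TdTomato-positive cells of both hippocampi were taken by flow cytometry after perfusion with PBS and removal of myelin. The 12 animals, 6 male and 6 female, were measured in 3 droplet runs of a single group, and neither their ages nor the animals in each run are given in the sources used here. Every comparison is therefore between populations of cells within the runs. The main fits take out the level of each run, so their p-values measure only how the within-run difference varied from run to run. That variation may be technical.

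ATP and ADP leave active, stressed or dying cells and are read by surface receptors of microglia. P2Y receptors couple to G proteins, P2X receptors are cation channels opened by ATP, and ectonucleotidases cut ATP and ADP down towards adenosine, which acts on its own receptors. In microglia, P2ry12 is known for steering process movement towards ADP, P2ry6 responds to UDP and is tied to phagocytosis, and P2rx7 opens at high ATP and can trigger the inflammasome.

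A minimum of 1000 UMIs (unique molecular identifiers, each a captured RNA molecule) and 500 genes, with no more than 10% mitochondrial UMIs, left 6993, 6720 and 6078 cells in runs 1, 2 and 3, in all 19791. Deposited totals were 34140879, 24717907 and 24225612 UMIs, and kept cells had medians of 4425, 3438 and 3696 UMIs. Of these cells, 99.3 to 99.5% per run held UMIs of at least 5 of 10 microglia markers such as Tmem119 and Csf1r. Between 7 and 8 cell barcodes were shared by each pair of runs. Run 3 stood apart by immediate early genes: 1119 of its cells passed that gate, against 11 and 14 in runs 1 and 2. Cells were divided by marker genes into 11 gated populations, and cells that met no gate and held the microglia markers are called remaining microglia (6359, 6313 and 4578 cells). Values are CPM, the summed UMIs of a gene in a population and run scaled to the total of that population and run.

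The promoters of 3 members are shown because P2ry12 and P2ry13 are neighbours that were low in the same populations, while P2rx4 was high in macrophages and disease-associated cells, where they were low. All coordinates are on GRCm38. P2ry13 (ENSMUSG00000036362) spans chr3:59207892-59210882 and P2ry12 (ENSMUSG00000036353) chr3:59216272-59262871, both on the minus strand, 5390 bases apart. Both lie inside Med12l, a Mediator subunit gene on the opposite strand with 51.3 CPM in remaining microglia, and whether the counting used strand is not given in the sources used here. P2rx7 (ENSMUSG00000029468) spans chr5:122643911-122691432 and P2rx4 (ENSMUSG00000029470) chr5:122707544-122729738, both on the plus strand, 16112 bases apart. P2ry6 (ENSMUSG00000048779) spans chr7:100937630-100974649 on the minus strand. Entpd1 (ENSMUSG00000048120) spans chr19:40612366-40741602 on the plus strand. Adora3 (ENSMUSG00000000562) spans chr3:105870858-105908926 on the plus strand and shares 38024 bases with Tmigd3 on the same strand. Tmigd3 was at 1.02 CPM in remaining microglia, so the division of reads between these overlapping genes is uncertain.

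The 250 bases before the RefSeq transcript start (GRCm38.p6) of P2ry13, on the minus strand at chr3:59210883-59211132, and of P2rx4, on the plus strand at chr5:122707294-122707543, follow in 5′ to 3′ direction. For P2ry12, 30 bases at chr3:59263020-59263049 on the minus strand are given, since the surrounding window overlaps exons of Med12l. Capitals mark the letters AGGAAG, which hold the core of sites bound by ETS-family factors such as PU.1, the factor that defines the myeloid lineage. Those letters were chosen after the sequences had been seen.
P2ry13: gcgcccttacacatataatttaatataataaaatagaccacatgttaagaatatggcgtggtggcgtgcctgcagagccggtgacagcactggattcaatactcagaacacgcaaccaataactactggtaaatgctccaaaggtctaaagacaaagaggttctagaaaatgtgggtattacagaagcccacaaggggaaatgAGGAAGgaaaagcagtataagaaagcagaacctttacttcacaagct
P2ry12: aagctaacaagaAGGAAGttccccagtgac
P2rx4: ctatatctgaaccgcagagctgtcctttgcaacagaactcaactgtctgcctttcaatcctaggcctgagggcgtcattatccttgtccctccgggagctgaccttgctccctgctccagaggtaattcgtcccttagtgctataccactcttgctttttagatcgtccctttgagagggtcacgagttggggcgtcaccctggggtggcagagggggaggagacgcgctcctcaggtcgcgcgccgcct

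AGGAAG, searched on both strands, starts 47 bases before the start of P2ry13 and 52 bases before that of P2ry12. The P2rx4 window does not hold these letters. RefSeq windows were matched for 6 of the 7 genes, with more than 1 start for P2rx7 and Entpd1. Of 8 windows, 5 held the letters, as did 29.5% of the 32851 promoter windows of the same length. Since the letters were chosen after these windows had been seen, the counts are no test. P2rx7 and Entpd1 held them only at inner starts, 6472 and 47404 bases from the annotated gene start. The Adora3 start used lies 33563 bases from its annotated gene start. The RefSeq start of P2ry12 lies 114 bases outside the annotated gene used for its coordinates. A match of letters is a description and not a measured binding site.

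In remaining microglia, all 7 genes were higher than in 44 background cells chosen for few microglia markers. P2ry12 stood at 3835, 5042 and 3693 CPM in runs 1, 2 and 3, a mean of 4190 ± 742 (SD, n = 3). P2ry13 stood at 912, 1061 and 876 CPM (950 ± 98.1), and P2ry6 at 452, 583 and 429 CPM (488 ± 82.7). Run 2 was the highest run for each of the 3 P2Y receptors and for Adora3, and the lowest for P2rx7. Entpd1 went the other way, with 430, 341 and 431 CPM (400 ± 51.5), so run 2 was the lowest. P2rx4 was at 90.3, 97.1 and 105 CPM (97.5 ± 7.36) and P2rx7 at 108, 100.5 and 118 CPM (109 ± 8.74). Adora3, a receptor for adenosine, was at 118, 163 and 142 CPM (141 ± 22.4). Those 44 cells passed the T or NK or the choroid plexus gate with fewer than 5 microglia markers. They held 4 UMIs of P2ry12 (18.8 to 52.7 CPM per run), and 0 or 1 UMI of each other member. The choice by few markers itself favours low values of microglial genes. Without it, the 70 cells of the choroid plexus gate held 1829 CPM of P2ry12, 449 of P2ry13 and 301 of P2ry6 (means of 3 runs). They held 77.6 CPM of P2rx4, 102 of P2rx7, 50.7 of Adora3 and 205 of Entpd1.

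After each cell had been thinned to 2000 UMIs, P2ry12 was found in 99.4 to 99.8% of remaining microglia per run and P2ry13 in 79.8 to 84.6%. The share was 55.2 to 67.1% for P2ry6, 49.2 to 56.8% for Entpd1, 21.0 to 28.5% for Adora3, 18.5 to 21.3% for P2rx7 and 16.2 to 18.7% for P2rx4. In the background cells, with a median of 1641 to 2528 UMIs, P2ry12 was found in 2 of 21 cells deep enough to be thinned, P2ry6 and Entpd1 in 1 each, and the other 4 genes in 0 of 21. Unthinned shares were higher, with 93.8% for P2ry13 and 30.5% for P2rx4 as means of 3 runs. Remaining microglia held a mean of 3.53, 3.65 and 3.55 of the 7 genes in runs 1, 2 and 3 at this depth, and between 0.201 and 0.36% of them held all 7.

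Within remaining microglia the low-abundance members did not sort cells into holders and non-holders of the set. P2rx7 was found in 19.3, 17.2 and 21.7% of cells with a P2rx4 UMI in runs 1, 2 and 3, and in 19.8, 18.7 and 21.2% of cells without one. Over the 15 pairs that leave out P2ry12, in 3 runs, the share of a gene in cells with its partner exceeded that in cells without by -2.22 to 4.30 percentage points. These are descriptions at a depth where most cells lack a UMI of either channel.

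**Figure D1:**
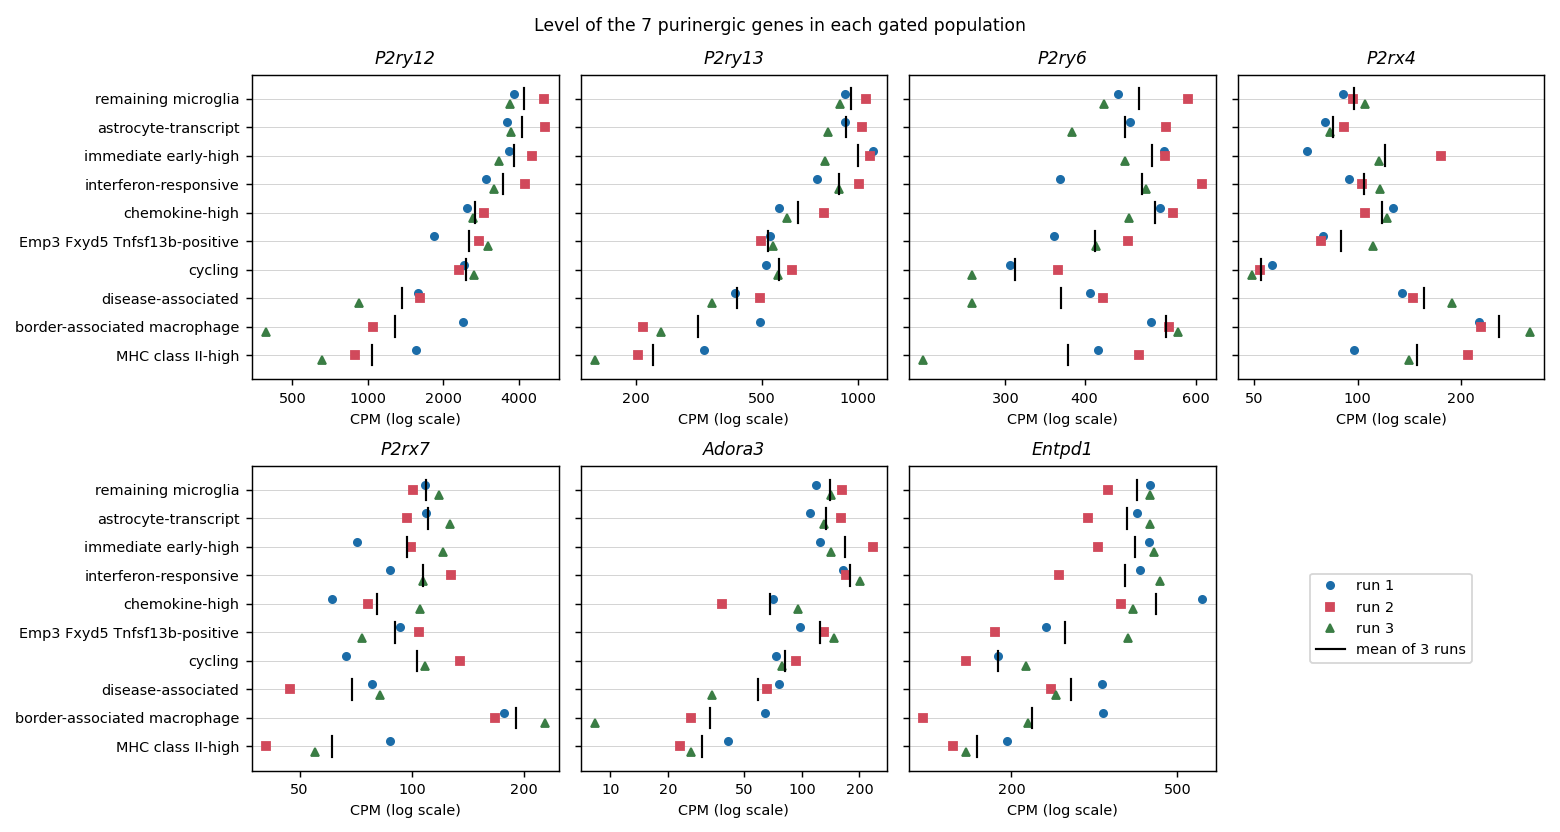
Level of each gene (CPM of summed UMIs, log scale) in 10 populations, with 1 symbol per run and a bar at the mean of 3 runs. P2ry12 falls from 4190 CPM in remaining microglia to 1035 CPM in MHC class II-high cells, while P2rx4 peaks at 257 CPM in border-associated macrophages.

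The tests against remaining microglia share those cells, so their results are not independent of each other. Statements below on overlap between runs rest on the same counts that entered the tests. For these comparisons the share of all tested genes without overlap was not counted. In border-associated macrophages, the perivascular and meningeal macrophages marked here by at least 4 of 8 genes such as Mrc1, Pf4 and Lyve1 (76, 28 and 49 cells), 2 members rose and 4 fell, against 10.5% of the 11148 genes tested. In disease-associated cells, marked by at least 3 of 9 genes such as Spp1, Lpl and Cst7 (65, 57 and 34 cells), 1 rose and 6 fell, against 17.2% of 11014 genes. In MHC class II-high cells (28, 29 and 49 cells), 1 rose and 4 fell, against 17.3% of 11075 genes. Of the 56, 39 and 57 cells that passed the MHC class II gate, 27, 10 and 8 also passed the macrophage gate. That gate is read first, so these cells are not among the MHC class II-high cells. In chemokine-high cells, with at least 5 UMIs of Ccl3 and Ccl4 (40, 47 and 96 cells), 3 fell, against 5.50% of 10953 genes. In interferon-responsive cells (77, 40 and 46 cells), 1 fell, against 2.02% of 10970 genes. In cells with astrocyte transcripts (218, 124 and 58 cells), 0 members passed the edgeR test, against 0.853% of 11138 genes. None of the 7 had an unadjusted p under 0.05 there, and DESeq2 also called 0.

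The median log2 change of the members was -0.74 in border-associated macrophages, -1.05 in MHC class II-high, -0.60 in disease-associated and -0.32 in chemokine-high cells. Over all genes tested it was -0.10, -0.15, -0.08 and -0.07 in the same order. The 7 genes entered every one of these tests.

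**Figure D2:**
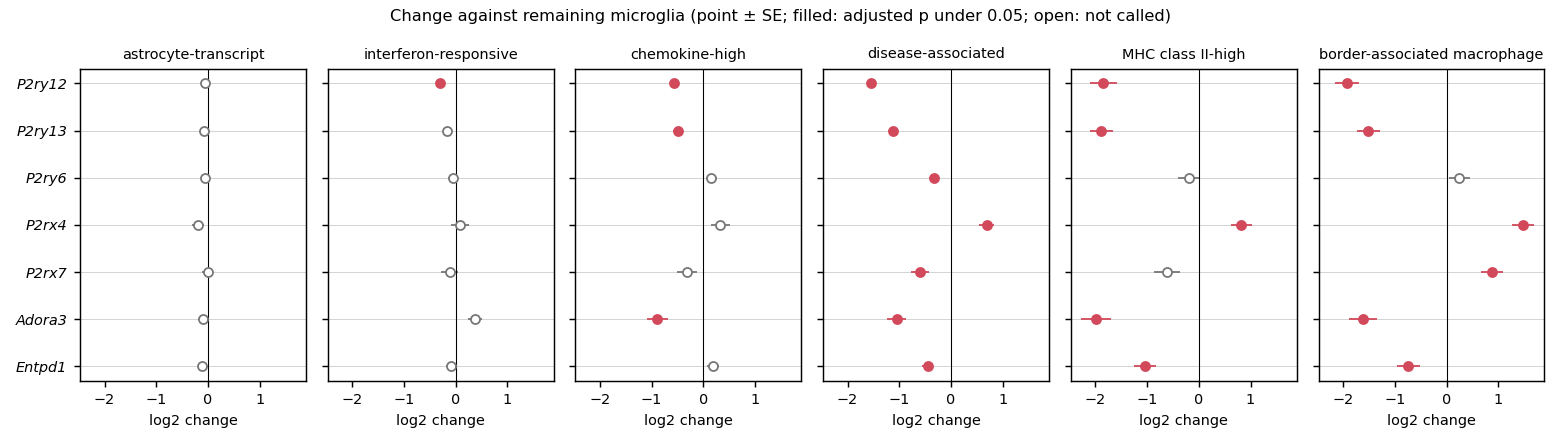
Log2 change of each gene against remaining microglia in 6 populations (point ± SE from edgeR, n = 3 runs; filled where the adjusted p is under 0.05). P2ry12 lies at -1.93 in border-associated macrophages and at -0.05 in cells with astrocyte transcripts; P2rx4 lies above 0 at 1.48 in the former.

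P2ry12, the ADP receptor used as a mark of homeostatic microglia, had the lowest levels in macrophages, MHC class II-high and disease-associated cells. Border-associated macrophages held 2396, 1052 and 392 CPM, each below the remaining microglia of its own run, and the groups did not overlap. The log2 change was -1.93 ± 0.23 (SE; adjusted p = 5.85e-15), and without run 1 it was -2.64. Run 1 was the highest, and 34.2% of its macrophages held both Xist and Y-linked UMIs, as a droplet with a female and a male cell would, against 3.57 and 6.12% in runs 2 and 3. In these macrophages the 6 MHC class II genes summed to 6704 to 17041 CPM, against 418 to 559 CPM in remaining microglia. Without the cells of mixed sex-linked UMIs the levels were 1635, 1016 and 338 CPM. Run 1 macrophages also had a median of 8033 UMIs and 10 of 10 microglia markers, against 3542 and 4325 UMIs and 4.5 and 5 markers in runs 2 and 3. The cause of the higher P2ry12 in run 1 was not tested.

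Disease-associated cells held 1586, 1614 and 926 CPM of P2ry12, with run 3 the lowest and no overlap with remaining microglia (-1.55 ± 0.07, adjusted p = 2.70e-96). All 10 microglia markers had UMIs in each run of these cells and summed to 22628 to 29619 CPM, against 31730 to 40750 CPM in remaining microglia. MHC class II-high cells held 1558, 893 and 655 CPM (-1.84 ± 0.26, adjusted p = 1.01e-10). The change was larger with a stricter gate (-2.47) and with cells thinned before gating (-3.09). Their microglia markers summed to 8284 to 16777 CPM against 31730 to 40750 CPM. Of 6 markers of neutrophils or monocytes, 2 to 4 had UMIs per run, with S100a9 and Retnlg at 0 in all runs, and the list summed to 154 to 777 CPM, against 3.53 to 4.69 CPM in remaining microglia. Their part in this change was not tested.

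Chemokine-high cells held 2482, 2906 and 2630 CPM of P2ry12, also without overlap (-0.57 ± 0.08, adjusted p = 3.38e-11). That call was lost without the run as a block (adjusted p = 0.183). Interferon-responsive cells held 2975, 4238 and 3178 CPM, which overlaps with remaining microglia although each run was lower than its own reference (-0.30 ± 0.07, adjusted p = 0.000505). The change was -0.27 without run 1 and -0.31 without the run as a block, where it was not called (adjusted p = 0.222 and 0.918), and over all 12 alternatives it ran from -0.63 to -0.24. Cells with astrocyte transcripts, at 3613, 5090 and 3741 CPM, differed by -0.05 ± 0.06.

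P2ry13, a second ADP receptor encoded beside P2ry12, stood at 493, 210 and 239 CPM in border-associated macrophages (-1.51 ± 0.22, adjusted p = 3.79e-10). It was at 412, 491 and 347 CPM in disease-associated cells (-1.13 ± 0.09, adjusted p = 4.69e-33) and at 328, 203 and 148 CPM in MHC class II-high cells (-1.88 ± 0.23, adjusted p = 1.52e-14), where it was -2.99 with cells thinned before gating. In each of these populations every run lay below the lowest run of remaining microglia, 876 CPM. Chemokine-high cells were closer, at 563, 780 and 598 CPM (-0.49 ± 0.10, adjusted p = 4.79e-05), and again did not overlap. That call was lost without the run as a block (adjusted p = 0.359).

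P2ry6, the UDP receptor, passed the test in 1 of these 6 populations. Border-associated macrophages held 509, 544 and 561 CPM (0.25 ± 0.21, adjusted p = 0.578), inside the range spanned by remaining microglia. MHC class II-high cells held 420, 487 and 222 CPM (-0.19 ± 0.21, adjusted p = 0.614). In disease-associated cells it was at 408, 428 and 265 CPM and fell by 0.33 ± 0.10 on the log2 scale (adjusted p = 0.00659). That call was lost without run 2 (adjusted p = 0.183), without run 3 (0.103), with DESeq2 (0.150), with a stricter cell filter (0.0784), with a stricter gate (0.137) and without the run as a block (0.385). The thinned share of cells, 52.9 to 61.4%, lay within that of remaining microglia apart from its lowest run.

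P2rx4, an ATP-gated channel found largely in lysosomes, had its 3 highest mean levels in the 3 populations with the lowest P2ry12. Border-associated macrophages held 225, 228 and 318 CPM, each above every run of remaining microglia, and rose by 1.48 ± 0.21 (adjusted p = 1.47e-10). At 2000 UMIs per cell, P2rx4 was found in 31 of 76, 9 of 20 and 21 of 48 of these cells, that is 40.8, 45.0 and 43.8%. The exact 95% intervals ran from 29.6 to 52.7%, 23.1 to 68.5% and 29.5 to 58.8%, all above the 16.2 to 18.7% of remaining microglia. They cover counting error within a run only. Shallower cells were left out, so run 2 kept 20 of its 28 macrophages. Leaving out cells with both kinds of sex-linked UMIs left 277, 218 and 303 CPM. The rise was called in all 12 alternatives run, with log2 changes from 1.33 to 1.70.

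Disease-associated cells held 135, 145 and 188 CPM of P2rx4, above the 105 CPM of the highest run of remaining microglia (0.69 ± 0.14, adjusted p = 3.05e-05). This rise was called in all 11 alternatives run (0.61 to 0.99). MHC class II-high cells held 97.4, 209 and 141 CPM and rose by 0.82 ± 0.21 (adjusted p = 0.00102), but run 1 lay inside the range of remaining microglia. Without run 2 this change was 0.56 with an adjusted p of 0.183. Chemokine-high cells, at 127, 105 and 122 CPM, did not pass (0.33 ± 0.18, adjusted p = 0.391).

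**Figure D3:**
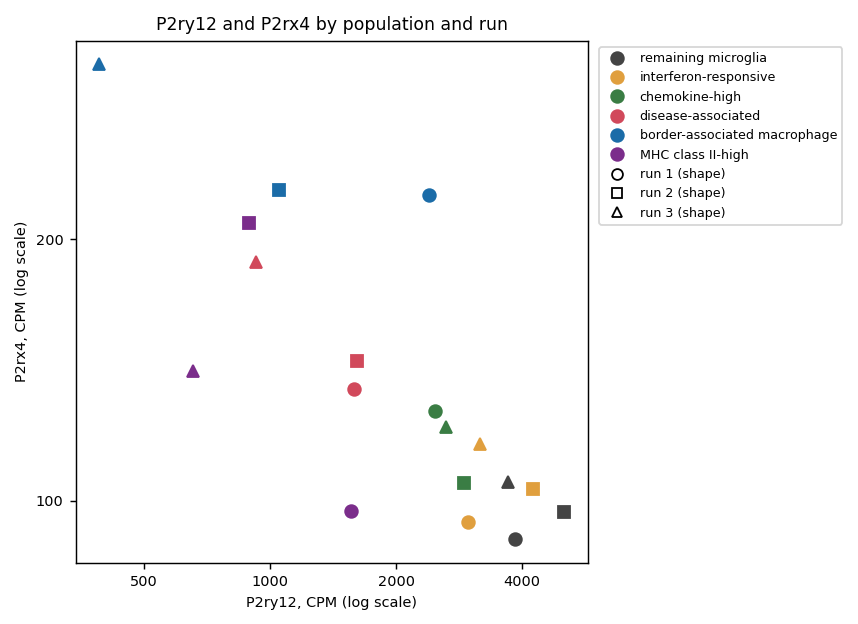
P2ry12 against P2rx4 (CPM, log scales), with colours for 6 populations and shapes for the 3 runs. Remaining microglia lie at high P2ry12 and about 97.5 CPM of P2rx4, and the border-associated macrophages of run 3 at 392 CPM of P2ry12 and 318 CPM of P2rx4.

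P2rx7, the channel that opens at high ATP, rose in border-associated macrophages, with 177, 167 and 227 CPM, all above the 118 CPM of the highest run of remaining microglia (0.88 ± 0.22, adjusted p = 0.000829). Without run 3 the change was 0.76 with an adjusted p of 0.0965. Its thinned share, 10.0 to 31.3% of macrophages, overlapped with the 18.5 to 21.3% of remaining microglia. In disease-associated cells P2rx7 was at 78.3, 47.2 and 82.0 CPM, below every run of remaining microglia, and fell by 0.60 ± 0.18 (adjusted p = 0.00663). This call was lost without run 2 (adjusted p = 0.218), with DESeq2 (0.133), with a stricter cell filter (0.0700), with a stricter gate (0.449) and without the run as a block (0.106). MHC class II-high cells held 87.1, 40.6 and 55.0 CPM (-0.62 ± 0.25, adjusted p = 0.0702). This change passed in 4 alternatives: without run 1 (-0.88, adjusted p = 0.0224), with a stricter cell filter (-0.76, 0.0427), with a stricter gate (-0.77, 0.0330) and with cells thinned before gating (-1.42, 0.0356). Chemokine-high cells held 61.0, 76.1 and 104.9 CPM (-0.32 ± 0.19, adjusted p = 0.457), and the change passed with a stricter gate (-0.78, adjusted p = 0.0156) and with cells thinned before gating (-1.57, 0.0223).

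Adora3, a Gi-coupled receptor for adenosine, was at 64.4, 26.3 and 8.26 CPM in border-associated macrophages, on 51, 3 and 2 UMIs (-1.62 ± 0.27, adjusted p = 9.13e-08). Run 1 was again the highest, and without it the change was -3.28 (adjusted p = 9.60e-12) on the 5 UMIs of runs 2 and 3. Without cells of mixed sex-linked UMIs the macrophage levels were 50.2, 28.5 and 8.91 CPM, with run 1 still the highest. The cause of the higher run 1 was not tested. MHC class II-high cells held 41.0, 23.2 and 26.3 CPM on 23 UMIs (-1.98 ± 0.29, adjusted p = 4.75e-10). Disease-associated cells held 76.3, 66.1 and 33.8 CPM (-1.06 ± 0.18, adjusted p = 5.22e-08). Each of these values lay below the 118 CPM of the lowest run of remaining microglia. Chemokine-high cells held 70.4, 38.1 and 95.4 CPM (-0.89 ± 0.20, adjusted p = 0.000300). This call was lost without run 2 (-0.58, adjusted p = 0.239), with DESeq2 (0.0613) and without the run as a block. With cells thinned before gating the change was -1.62. Interferon-responsive cells held 164, 170 and 201 CPM, each above its own remaining microglia, but the change of 0.37 ± 0.14 did not pass (adjusted p = 0.211).

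Entpd1 encodes CD39, the surface enzyme that removes phosphates from ATP and ADP. It stood at 329, 249 and 256 CPM in disease-associated cells, below every run of remaining microglia, and fell by 0.45 ± 0.11 (adjusted p = 0.000282). That call was lost with a stricter gate, on 2 runs (-0.25, adjusted p = 0.419), and without the run as a block (-0.46, 0.126). MHC class II-high cells held 195, 145 and 155 CPM, with no overlap with the 341 to 431 CPM of remaining microglia (-1.05 ± 0.22, adjusted p = 2.69e-05). Border-associated macrophages held 332, 123 and 219 CPM (-0.74 ± 0.22, adjusted p = 0.0109). This last call was lost without run 2 (adjusted p = 0.416), without run 3 (0.260), with DESeq2 (0.103), without the run as a block (0.178) and, both on 2 runs, with a stricter cell filter (0.411) and with cells thinned before gating (0.285). Chemokine-high cells, at 572, 366 and 391 CPM, were not called (0.18 ± 0.12, adjusted p = 0.505).

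The disease-associated and chemokine-high populations were compared directly, since both tests above use the same reference. Of cells passing the chemokine gate, 11 of 57, 14 of 66 and 11 of 113 also passed the disease-associated gate in runs 1, 2 and 3. The gate order kept these out of the chemokine-high population. In run 3, 66 of the 113 also passed the immediate early gate, which is read last. Disease-associated cells lay below chemokine-high cells in 4 members, against 8.20% of the 4234 genes tested: P2ry12 (-0.99 ± 0.12, adjusted p = 8.40e-15), P2ry13 (-0.63 ± 0.15, adjusted p = 0.000806), Entpd1 (-0.67 ± 0.16, adjusted p = 0.00172) and P2ry6 (-0.51 ± 0.16, adjusted p = 0.0193). Over the 3 runs the groups did not overlap for P2ry12, P2ry13, Entpd1 or P2ry6, on the same values that entered the test. The share of all tested genes without overlap was not counted. P2rx4 (0.40 ± 0.23), P2rx7 (-0.20 ± 0.29) and Adora3 (-0.20 ± 0.31) did not pass. P2ry12 was the single call left with DESeq2, with a stricter gate or without the run as a block. P2ry13 was also lost without run 2 (adjusted p = 0.0653), and P2ry6 without run 2 (0.121), without run 3 (0.296) and with a stricter cell filter (0.153).

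Without the run as a block, the count of members called fell from 7 to 4 in disease-associated and from 3 to 0 in chemokine-high cells. P2ry12, P2ry13, P2rx4 and Adora3 were the 4 that remained in disease-associated cells. Calls over all genes fell as well, from 1889 to 678 of 11014 in disease-associated and from 602 to 108 of 10953 in chemokine-high cells.

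Another 3 populations had too few cells for a test. Cycling cells (40, 15 and 16) held 2418, 2310 and 2664 CPM of P2ry12, 52.4 ± 3.53 CPM of P2rx4 and 186 ± 30.4 CPM of Entpd1 (SD, n = 3), each below all runs of remaining microglia. Cells with Emp3, Fxyd5 and Tnfsf13b together (32, 14 and 18) held 1837, 2775 and 3031 CPM of P2ry12 and 522 ± 23.7 CPM of P2ry13. Their P2rx4, 89.2 ± 18.4 CPM, overlapped with remaining microglia. The 1119 immediate early-high cells of run 3 held 3348 CPM of P2ry12, 787 CPM of P2ry13 and 115 CPM of P2rx4, against 3693, 876 and 105 CPM in the remaining microglia of that run.

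**Figure D4:**
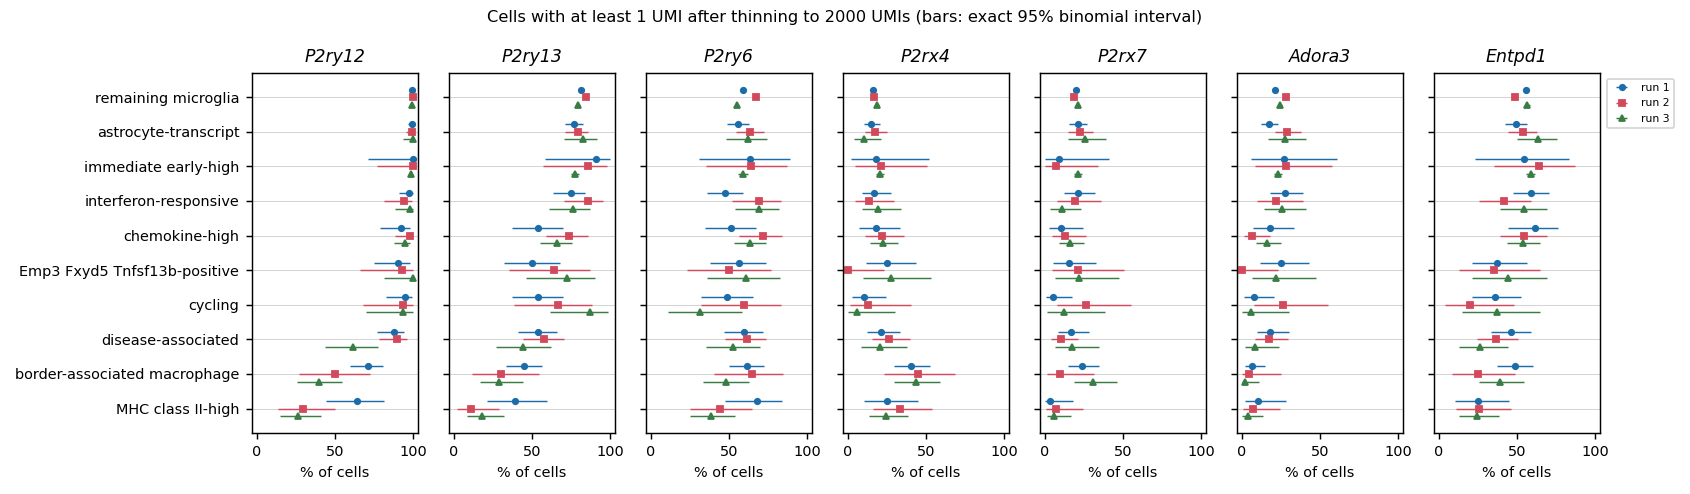
Share of cells with at least 1 UMI after thinning to 2000 UMIs, by population and run, with exact 95% binomial intervals that cover counting error only. P2rx4 reaches 40.8 to 45.0% in border-associated macrophages, where Adora3 is found in 2.08 to 6.58%.

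Ordered by mean level over the 10 populations, most neighbours overlapped between runs. All 9 neighbouring pairs overlapped for P2ry6 and for Entpd1, and 8 of 9 for P2ry13, P2rx7 and Adora3. The steps without overlap for P2rx4 lay below border-associated macrophages (257 ± 52.8 CPM), which were followed by disease-associated cells (156 ± 28.5), and above cycling cells. For P2ry12 they lay below interferon-responsive cells (3464 ± 678 CPM), followed by chemokine-high cells (2673 ± 215), and below cycling cells (2464 ± 181), followed by disease-associated cells (1375 ± 389).

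The animals were of both sexes, so remaining microglia with at least 2 Xist UMIs and no Y-linked UMI (2497, 3319 and 1947 cells) were compared with those with Y-linked UMIs and no Xist (2165, 1265 and 1214 cells). The edgeR test called 0 of the 7 members, against 0.361% of 11066 genes. DESeq2 also called 0, and P2rx7 and Entpd1 were the 2 with an unadjusted p under 0.05. Entpd1 was at 392, 334 and 408 CPM in Xist cells and at 467, 356 and 438 CPM in Y-linked cells, lower in Xist cells in each run (-0.16 ± 0.04, adjusted p = 0.123). Without run 2 its adjusted p was 0.0462. P2ry12 differed by -0.004 ± 0.044 and P2rx7 by 0.12 ± 0.05 (adjusted p = 0.429).

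Other genes of the pathway were taken from a list of 44, of which 2 served as markers. In each comparison with remaining microglia 21 passed the filter on low counts, not always the same genes. Of the 21, 1 rose and 7 fell in disease-associated cells, against calls for 17.2% of all genes tested. In MHC class II-high cells 2 rose and 5 fell, against 17.3%. In border-associated macrophages 1 rose and 3 fell, against 10.5%, and in chemokine-high cells 3 fell, against 5.50%. Their median log2 changes were -0.34, -0.36, -0.14 and -0.06 in this order. Over all genes tested the medians were -0.08, -0.15, -0.10 and -0.07. In disease-associated cells the largest falls were in Pnp, Il18 and Plcb2. Pnp, which splits inosine and guanosine, went from 607.7 to 206 CPM (-1.43 ± 0.11, adjusted p = 1.49e-37). Il18, a cytokine matured by the inflammasome, changed by -0.92 ± 0.24 (adjusted p = 0.00144). It had 34 UMIs there, at an uneven 25.8 ± 26.1 CPM (SD, n = 3), against 63.7 ± 0.60 CPM in remaining microglia. Plcb2, a phospholipase, had 17 UMIs there (-0.89 ± 0.34, adjusted p = 0.0472). Pnp (-1.06 ± 0.17, adjusted p = 1.19e-07) and Il18 (-1.18 ± 0.37, adjusted p = 0.0216) were also below chemokine-high cells. Kcnk13, which encodes the THIK-1 potassium channel that works with P2ry12 in microglia, was at 119 ± 15.8 CPM in remaining microglia and 150 ± 38.9 CPM in disease-associated cells (0.40 ± 0.14, adjusted p = 0.0272).

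In border-associated macrophages, Casp1, the inflammasome protease, rose by 0.76 ± 0.26 (adjusted p = 0.0407). Pycard, its adaptor, fell by 0.98 ± 0.22 (adjusted p = 0.000133), as did Kcnk13 (-0.79 ± 0.25) and the lysosomal nucleoside transporter Slc29a3 (-0.70 ± 0.23). In MHC class II-high cells, P2ry14, a receptor for UDP-glucose, had 16 UMIs (17.1 ± 11.8 CPM) against 9 UMIs (0.12 ± 0.06 CPM) in all remaining microglia (7.21 ± 1.03, adjusted p = 1.23e-10). Casp1 rose there by 0.89 ± 0.27 (adjusted p = 0.00743), while Lrrc8a, a volume-regulated channel subunit (-1.71 ± 0.38), Slc29a1 (-0.99 ± 0.27) and Pik3cg (-0.79 ± 0.25) fell. In chemokine-high cells, Slc29a3 fell by 0.55 ± 0.14 (adjusted p = 0.00442). Of the listed genes, 10, among them the ADP receptor P2ry1 and the adenosine receptor Adora2a, had 0 UMIs in the remaining microglia of all runs, and Nt5e, the enzyme that makes adenosine from AMP, had 9.

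The genes whose mean log2 levels over 7 populations ran most closely with each member were named by a fixed rule, from 7643 genes. These were Slc2a5 (r = 0.999), Pmepa1 and Tbc1d23 for P2ry12, Pde3b (0.997), Kif21b and Ctso for P2ry13, and Map3k1 (0.960), Dynlt3 and Rit1 for P2ry6. For P2rx4 they were Rbbp8 (0.991), Galc and Snap23, and for P2rx7 Maf (0.994), Etv1 and Kif1b. For Adora3 they were Ikzf1 (0.997), Rnf135 and Ubn2, and for Entpd1 Cyfip1 (0.995), Wnk1 and Rasgrp3. Among the members, r was 0.981 between P2ry12 and P2ry13 and -0.874 between P2ry12 and P2rx4. These are descriptions over 7 points from the same 3 libraries, in which the macrophage and MHC class II-high populations weigh heavily.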

How the data were processed

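Single-cell RNA of sorted hippocampal cells was measured with 10x Genomics reagents in 3 runs of a single group, per the labels' protocols. The authors deposited raw UMI counts per gene and barcode, tested to be whole numbers. Per the submitters' processing notes, Cell Ranger, Seurat 4.0 and the mm10 build were used, and the file headers name matrix software 3.0.2 for run 1 and 3.1.0 for runs 2 and 3. The annotation, the use of strand and the rule for keeping barcodes are not given in the sources used here. The IDs were looked up in GENCODE M21 of GRCm38 (30934 of 31053, 99.6%), and promoters come from RefSeq.

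Cells were kept with at least 1000 UMIs, 500 genes and at most 10% mitochondrial UMIs, and no doublet caller was run. Gates were read in a fixed order: T or NK and choroid plexus (3 markers each), border-associated macrophage (4 of 8), MHC class II (5 of 6), Emp3, Fxyd5 and Tnfsf13b (all 3), astrocyte transcripts (3 of 10), cycling (2 of 10), interferon (3 of 10), disease-associated (3 of 9; Clec7a was not used here), Ccl3 and Ccl4 (5 UMIs), and immediate early (5 of 10). From astrocyte transcripts on, gates also required 5 of 10 microglia markers. The members, lists and markers were chosen with earlier results of these data known, and the gate minimums after the marker counts per run had been seen.

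Sums of UMIs over the cells of a population in a run entered edgeR 4.0.16 (R 4.3.3; glmQLFit and glmQLFTest, TMM, filterByExpr, run as a block), with Benjamini-Hochberg adjustment over all genes tested, at an adjusted p of 0.05. Marker genes were not tested, each run needed 20 cells in both populations, and the SE is the absolute log2 change over the square root of F. Runs pair the sums, since both are parts of 1 library. Deviations of the paired sums correlated across genes at 0.156 to 0.908 over the 8 comparisons and 3 runs. The fit was also run on simulated counts with a single fixed dispersion. Common dispersions estimated here ran from 0.0011 to 0.0277 over the comparisons, so that run does not measure error rates in these data. CPM were derived from the deposited counts. Shares of cells were read after random thinning to 2000 UMIs per cell, without shallower cells. Intervals are exact binomial at 95% and cover counting error only. Other pathway genes are named where the adjusted p was under 0.05 and the absolute log2 change at least 0.5, at most 3 per direction and comparison. Kcnk13 in disease-associated cells, P2ry1, Adora2a and Nt5e were named outside that rule, after their values had been seen. For each member, the 3 genes with the highest Pearson r of mean log2(CPM + 1) over populations with at least 20 cells in each run are named, from genes with at least 20 CPM in 1 of them.

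Alternatives were DESeq2 1.42.0 (Wald test with the run in the design), its size factors in edgeR, no filter on low counts, no block, leaving out each run, a stricter cell filter (2000 UMIs, 1000 genes, 5% mitochondrial), stricter gates, thinning before gating, leaving out cells of mixed sex-linked UMIs, and all other microglia-marked cells as the reference.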

Additional observations from a re-analysis of the deposited data

How the results depend on the processing

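Of 297 refits of the 26 member changes called, 256 stayed called with the same sign, 41 lost the call and 0 turned sign. Counts of members called moved by more than 1.5 times in these settings. With no replicate block, disease-associated cells gave 4, chemokine-high cells 0, interferon-responsive cells 0 and disease-associated against chemokine-high cells 1. With DESeq2 the last comparison gave 1. With stricter gates it gave 1 and disease-associated cells gave 4, on 2 runs. Leaving out each run gave 4 to 6 members for border-associated macrophages, 4 to 6 for MHC class II-high, 0 for astrocyte-transcript, 0 to 1 for interferon-responsive, 5 to 7 for disease-associated, 2 to 3 for chemokine-high cells, 2 to 4 for disease-associated against chemokine-high and 0 to 1 for Xist against Y-linked cells. The cause was not tested. Thinning before gating left too few cells for both comparisons of disease-associated cells, and the sex-linked split had no stricter form.

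Changes that turned sign were all uncalled. Leaving out each run gave -0.33 to 0.042 for P2ry6 in MHC class II-high cells, -0.038 to 0.021 for P2rx7 in cells with astrocyte transcripts, -0.16 to 0.11 for P2ry6, -0.22 to 0.042 for P2rx7 and -0.16 to 0.0057 for Entpd1 in interferon-responsive cells, -0.53 to 0.38 for Adora3 in disease-associated against chemokine-high cells, and -0.036 to 0.026 for P2ry12 in Xist against Y-linked cells. In cells with astrocyte transcripts, P2rx7 was 0.00316 with DESeq2, 0.0034 with its size factors, 0.20 with the stricter gate and 0.30 when thinned, and P2ry6 was 0.051 when thinned. In interferon-responsive cells, P2ry6 was 0.019 with DESeq2, 0.00119 with its size factors and 0.00253 with the stricter cell filter, and Adora3 was -0.034 when thinned. In chemokine-high cells thinned before gating, P2ry6 was -0.14 and Entpd1 -0.00773. Adora3 in disease-associated against chemokine-high cells was 0.34 with stricter gates. P2ry12 in Xist against Y-linked cells was 0.00946 with no filter and 0.00439 with no replicate block.

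When cells were weighted equally, 67 of 70 levels (7 members in 10 populations) moved by less than their SD between runs. The exceptions were P2rx4 in cycling cells (64.4 against 52.4 CPM), and P2ry13 (551 against 522 CPM) and P2ry6 (484 against 415 CPM) in cells with Emp3, Fxyd5 and Tnfsf13b. Shares of cells with a UMI rise with depth, and 73 of 98 unthinned or 1500-UMI values lay outside the spread of the 2000-UMI shares.

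The number of genes called over all tested also varied: from 454 to 1602 (1176 as reported) for border-associated macrophages, 751 to 2045 (1914) for MHC class II-high, 16 to 108 (95) for astrocyte-transcript, 113 to 241 (222) for interferon-responsive, 678 to 1933 (1889) for disease-associated and 108 to 843 (602) for chemokine-high cells, 48 to 354 (347) for disease-associated against chemokine-high cells, and 0 to 99 (40) for Xist against Y-linked cells. The 0 is from edgeR with no replicate block, where 69 genes had an unadjusted p under 0.05 and DESeq2 with the run called 12.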
